A study of Mus musculus with 24 samples.

Results

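The 35 genes described here code for the contractile lattice of heart muscle and for the enzymes and carriers that keep it supplied with energy. They were selected by gene name, with earlier results of these data known. Shares of members set beside shares of all genes are therefore descriptions, not tests of the list. The members fall into 4 groups by role, of which 11 genes belong to the thin filament and 5 to the thick filament, titin and the M-band. The Z-disc, the intermediate filaments and the intercalated disc have 16, and energy supply has 3. The array carries 36413 gene names, of which 28237 passed the filter on dim probes, and all 35 members were among them and were above background on all 24 arrays. The RNA came from the left ventricle of 24 male mice, 1 array per mouse. The mG4H STZ group (n = 6) carried an inducible transgene for GLUT4, an insulin-regulated glucose carrier, expressed in cardiomyocytes only, and was made diabetic with streptozotocin, a toxin of pancreatic beta cells. The mG4H VEH group (n = 6) carried the same transgene and was given citrate buffer. The CON STZ group (n = 6) had no transgene and received streptozotocin, and the CON VEH group (n = 6) had no transgene and received buffer. The streptozotocin dose was 55 mg/kg on each of 5 days, induction followed 2 weeks later and the hearts were taken after another 2 weeks. The age of the mice and the inducing agent are not given in the sources used here, and neither is whether the CON mice also received that agent. Some mice had siblings in another group, but the labels do not say which, so siblings were not modelled.

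In a sarcomere, myosin heads of the thick filament pull on actin of the thin filament, and troponin with tropomyosin lets calcium switch that pull on and off. Z-discs anchor the thin filaments from both sides, M-bands cross-link the thick filaments, and titin runs between them as a spring, while desmin filaments tie neighbouring Z-discs to each other and to the cell surface. Creatine kinases pass phosphate from mitochondrial ATP to creatine and back to ADP beside the myosin heads, and myoglobin holds oxygen. Several of these proteins exist as fetal, slow skeletal or adult cardiac isoforms, and a return of fetal isoforms is a well known feature of stressed heart muscle.

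Each value below is the log2 intensity of a gene's brightest probe minus the log2 of its array's 75th percentile, so that 0 is the 75th percentile of all gene spots on that array. Such levels compare 1 probe between mice, not 1 gene with another. Where 3 levels are given for a group, they are the lowest, the median and the highest of its mice. The 75th percentile lay between 370 and 583 intensity units, 58.5% to 76.3% of spots were above background, no spot of a member was saturated, and any 2 arrays correlated at 0.959 or higher. Slides 1 to 3 each held mice of all 4 groups, and slide 4 held replicate 3 of mG4H VEH and of CON VEH only. Blood glucose at 4 weeks, printed in the labels without a unit, ranged from 500 to 601 in mG4H STZ, against 131 to 152 in mG4H VEH, and was 600 or 601 in CON STZ, against 117 to 164 in CON VEH. The value 601 recurs in both STZ groups, and the labels do not say whether readings were capped there. Differences in glucose between the STZ groups are therefore uncertain. Body weight ranged from 21.1 to 28.1 in mG4H STZ, 25.5 to 31.2 in mG4H VEH, 21.8 to 27.8 in CON STZ and 27.9 to 36.4 in CON VEH. The 10 markers of ventricular cardiomyocytes were above background on every array, and their summed linear level ranged from 1894 to 2429 in mG4H STZ, 1990 to 2618 in mG4H VEH, 1788 to 2513 in CON STZ and 2048 to 2756 in CON VEH. In RNA of whole tissue, fewer cardiomyocytes and less RNA per cardiomyocyte cannot be told apart.

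The probes show what the levels rest on, and 4 of them are printed because the creatine kinase result and the isoform comparisons turn on them. Of the 35 members, 29 had 1 probe past the filter on dim probes. All are 60-base sequences placed on mouse build mm9 by the array files, and no transcript annotation of that build was used here to assign them to exons. The Ckm probe lies on the plus strand at chr7:20002222-20004829, a span of 2608 bases for 60 letters, so it joins sequence from either side of an intron. The Tnni1 probe at chr1:137705328-137706203 on the plus strand spans 876 bases in the same way. The Tnni3 probe lies at chr7:4472043-4472102 and the Acta1 probe at chr8:126416197-126416256, both on the minus strand. The sequences follow as printed on the array, 5′ to 3′.
Ckm probe: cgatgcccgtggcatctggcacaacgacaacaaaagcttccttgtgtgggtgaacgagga
Tnni1 probe: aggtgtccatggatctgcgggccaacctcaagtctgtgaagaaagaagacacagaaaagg
Tnni3 probe: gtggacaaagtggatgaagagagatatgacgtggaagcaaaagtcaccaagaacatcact
Acta1 probe: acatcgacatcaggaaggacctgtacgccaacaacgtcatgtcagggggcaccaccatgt
Skeletal and cardiac alpha-actin are nearly identical genes, so the Acta1 values are uncertain, and whether this probe also reads Actc1 RNA was not tested.

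In CON mice, streptozotocin changed 5 of the 35 members. Tnnt1, Ckm and Nebl fell and Flnc and Myom2 rose, each by less than 2-fold. That is 14.3% of the members, where 3.96% of all genes tested passed the same threshold (adjusted p below 0.05 from limma over all 28237 genes), 1.66% higher and 2.29% lower. The members were chosen with earlier results of these data known, so a higher share among them is not independent evidence. The median log2 fold change of the members was 0.03, and it was 0.03 over all genes. At an unadjusted p below 0.05 there were 10 members higher, where 6.51% of all genes were, and 5 lower, where 7.75% were (15 members in all, against 14.3% of all genes). With the slide as a block, 6 members passed, the added one being Ankrd1. Among only the genes above background on all 24 arrays, 7 members passed, where 1325 of 21669 genes did. The count was lower when the arrays were scaled to their medians (0 members), with body weight as a covariate (1, Tnnt1), without slide 4 (2, Tnnt1 and Ckm) and with no filter on dim probes (3, Tnnt1, Ckm and Flnc). Body weights of CON STZ mice (21.8 to 27.8) and CON VEH mice (27.9 to 36.4) did not overlap. The fit with body weight therefore separates weight from streptozotocin poorly, and a call lost there does not show that weight accounts for it. In mG4H mice, 0 of the 35 members passed the adjusted threshold and 12 had an unadjusted p below 0.05, where 0.266% and 14% of all genes did. Of these 12, 6 were higher and 6 lower, where 6.39% and 7.61% of all genes were. The contrast between the genotypes' streptozotocin effects gave 0 members at the adjusted threshold and 0 at an unadjusted p below 0.05 (background 0% and 1.77% of all genes). Whether any member responded differently in the 2 genotypes was therefore not shown.

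**Figure D1:**
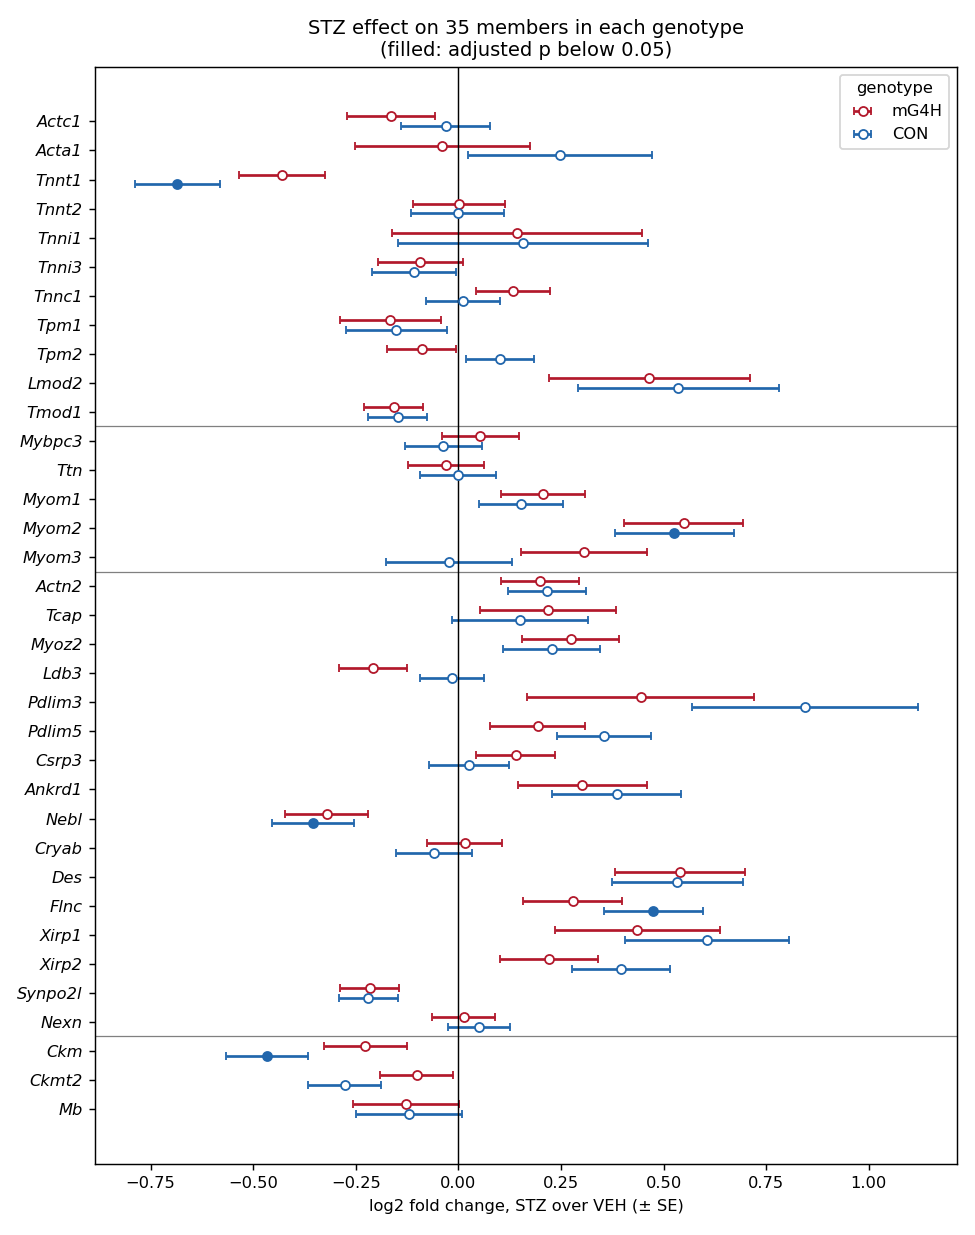
Log2 fold change of STZ over VEH (x axis, points with SE bars) for the 35 members (y axis) in mG4H mice (red) and CON mice (blue), with lines between the 4 roles from thin filament at the top to energy supply at the bottom. Filled points passed the adjusted threshold, 0 in mG4H and 5 in CON, and 29 of the 35 genes have the same sign in both genotypes.

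The streptozotocin effects of both genotypes, which share no mice, had the same sign for 29 of the 35 members (82.9%), where 71.2% of all genes did. By role, 12 of 16 members of the Z-disc group had positive values in CON mice (median 0.22), against 5 of 11 in the thin filament group (median 0.00), 2 of 5 in the thick filament group (median 0.00) and 0 of 3 in energy supply (median -0.28). In mG4H mice 13 of 16, 4 of 11, 4 of 5 and 0 of 3 were positive, with medians of 0.21, -0.09, 0.21 and -0.13. Median log2 fold changes over all genes were 0.03 in CON and 0.06 in mG4H mice.

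Among the thin filament genes Tnnt1 changed most clearly. It encodes slow skeletal troponin T, the subunit that fixes troponin to tropomyosin in slow muscle fibres. In CON mice its lowest, median and highest levels were 1.86, 2.18 and 2.41 under STZ, against 2.74, 2.85 and 2.98 under VEH. Every STZ mouse was below every VEH mouse. Tnnt1 fell by 0.68 on the log2 scale (SE 0.10, limma adjusted p = 0.000645), which is 1.61-fold. Within slides 1, 2 and 3 the difference was -0.56, -0.83 and -0.65. In mG4H mice the levels were 2.10, 2.56 and 2.86 under STZ, against 2.77, 2.97 and 3.11 under VEH, and the groups overlapped slightly. The log2 fold change there was -0.43 (SE 0.10, adjusted p = 0.0792). Under STZ, Tnnt1 was 0.37 higher in mG4H than in CON mice on the log2 scale without passing the test (adjusted p = 0.461), and the streptozotocin effects of the genotypes differed by 0.25 (mG4H minus CON; adjusted p = 1, 95% interval -0.05 to 0.56).

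**Figure D2:**
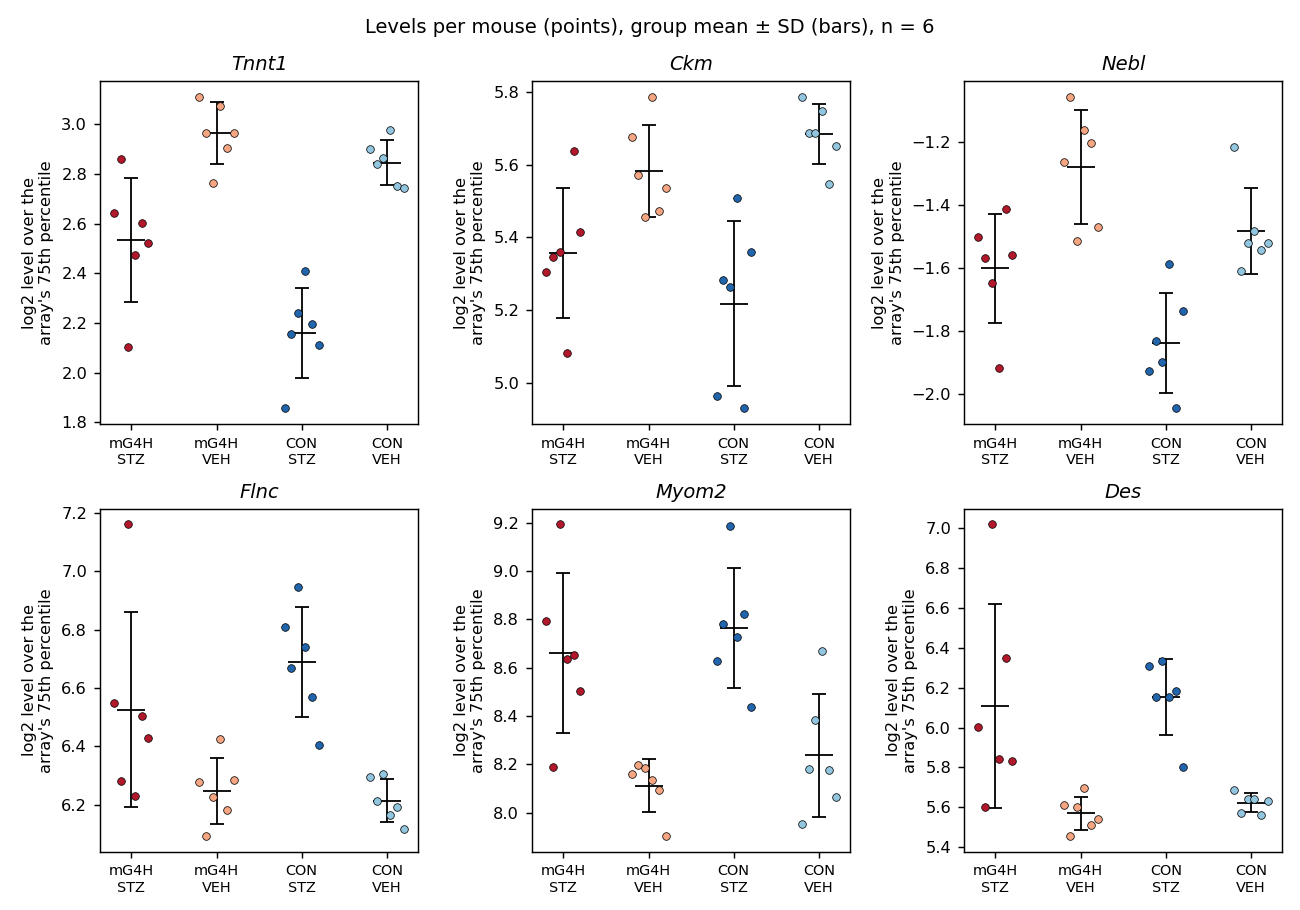
Levels of 6 members (y axes, log2 over the array's 75th percentile) in each mouse (points), with group mean and SD (bars), for mG4H STZ, mG4H VEH, CON STZ and CON VEH from left to right. Tnnt1 and Ckm of all CON STZ mice lie below those of all CON VEH mice, and Flnc and Des of all CON STZ mice lie above.

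The adult troponin genes gave small differences that did not pass the test. Tnnt2, cardiac troponin T, had levels of 8.66, 8.90 and 9.26 in CON STZ, against 8.66, 8.85 and 9.18 in CON VEH, and 8.66, 8.84 and 9.28 in mG4H STZ, against 8.72, 8.89 and 8.98 in mG4H VEH. Its log2 fold change was 0.00 in CON and 0.00 in mG4H mice, with 95% intervals of -0.24 to 0.23 and -0.23 to 0.24. Tnni3, cardiac troponin I, the inhibitory subunit, had 8.52, 8.63 and 9.05 in CON STZ, against 8.61, 8.79 and 9.08 in CON VEH, a log2 fold change of -0.11 (adjusted p = 0.836). Its groups overlapped almost completely, as they did in mG4H mice, where STZ gave 8.56, 8.77 and 8.93 and VEH 8.58, 8.82 and 9.09. Tnnc1, the calcium-binding subunit shared by slow skeletal and cardiac muscle, differed by 0.01 in CON and 0.13 in mG4H mice.

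Tnni1, the slow skeletal troponin I that the fetal heart uses, was far below the 75th percentile. Its levels were -4.26, -3.73 and -2.65 in CON STZ, against -4.26, -3.78 and -3.01 in CON VEH, and -4.38, -3.44 and -2.70 in mG4H STZ, against -4.50, -3.62 and -2.99 in mG4H VEH. All 4 groups overlapped widely. The log2 fold changes of 0.16 and 0.14 had 95% intervals of -0.48 to 0.79 in CON and -0.49 to 0.78 in mG4H mice. With this dim probe the values are therefore compatible with a change of either sign within these intervals.

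The actins and tropomyosins showed no change past the test. Actc1, cardiac alpha-actin, had levels of 9.18, 9.34 and 9.59 in CON STZ, against 9.16, 9.33 and 9.66 in CON VEH, and 9.01, 9.28 and 9.58 in mG4H STZ, against 9.20, 9.45 and 9.70 in mG4H VEH. Acta1, skeletal alpha-actin, which the fetal heart also uses, had 6.37, 6.97 and 7.17 in CON STZ (5 mice, since the spot of replicate 4 was marked an outlier by the software), against 6.35, 6.66 and 6.89 in CON VEH. In mG4H mice Acta1 stood at 6.0, 6.87 and 7.31 under STZ, against 6.21, 6.87 and 7.09 under VEH. The STZ mice of both genotypes spread more widely than the VEH mice and enclosed or overlapped their range, and the log2 fold changes were 0.25 in CON and -0.04 in mG4H mice. Tpm1, alpha-tropomyosin, the main form of the mouse ventricle, had 8.72, 9.03 and 9.30 in CON STZ, against 8.94, 9.14 and 9.53 in CON VEH, and 8.84, 9.03 and 9.31 in mG4H STZ, against 8.86, 9.21 and 9.54 in mG4H VEH. Tpm2, beta-tropomyosin, had 2.90, 3.05 and 3.38 in CON STZ, against 2.91, 2.98 and 3.12 in CON VEH, and 2.86, 3.0 and 3.03 in mG4H STZ, against 2.94, 3.04 and 3.24 in mG4H VEH. Both tropomyosins overlapped between STZ and VEH mice in each genotype, with log2 fold changes in CON of -0.15 for Tpm1 and 0.10 for Tpm2.

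The genes for proteins at the pointed end of the thin filament had values of opposite sign that did not pass the test. Lmod2, leiomodin 2, which lengthens thin filaments, had a log2 fold change of 0.54 in CON (adjusted p = 0.305) and 0.46 in mG4H mice (adjusted p = 0.411). Its highest values were 5.53 in replicate 5 of mG4H STZ and 4.95 in replicate 3 of CON STZ, while all 12 VEH mice of both genotypes lay between 3.46 and 3.86. Tmod1, tropomodulin, which caps that end, had -0.15 in CON and -0.16 in mG4H mice (adjusted p = 0.351 and 0.319).

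In the thick filament group Myom2 rose in CON mice. It encodes M-protein, a cross-linker of thick filaments in the M-band of adult heart and fast muscle. Its levels were 8.44, 8.75 and 9.19 in CON STZ, against 7.95, 8.18 and 8.67 in CON VEH. The STZ mice were higher with some overlap, and the log2 fold change was 0.53 (SE 0.14, adjusted p = 0.0411), or 1.44-fold. In mG4H mice the levels were 8.19, 8.64 and 9.19 under STZ, against 7.90, 8.15 and 8.20 under VEH. Replicate 2 of mG4H STZ lay among the VEH mice and the other 5 STZ mice lay above them. The log2 fold change of 0.55 there had a similar size and did not pass (SE 0.14, adjusted p = 0.0952). Within slides 1, 2 and 3 Myom2 differed by 0.57, 0.52 and 0.58 in CON mice.

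Myom1 and Myom3 encode myomesin 1, the M-band cross-linker of all striated muscle, and myomesin 3, a skeletal muscle form. Myom1 had 6.28, 6.46 and 6.71 in CON STZ, against 6.22, 6.30 and 6.44 in CON VEH, and 6.24, 6.48 and 6.91 in mG4H STZ, against 6.24, 6.32 and 6.50 in mG4H VEH. Myom3 had 1.32, 1.56 and 1.65 in CON STZ, against 1.45, 1.51 and 1.65 in CON VEH, and 1.46, 1.70 and 2.33 in mG4H STZ, against 0.99, 1.37 and 2.06 in mG4H VEH. Both overlapped between STZ and VEH, and their log2 fold changes in CON mice were 0.15 for Myom1 and -0.02 for Myom3. Ttn, the spring protein titin, differed by 0.00 in CON and -0.03 in mG4H mice (95% intervals -0.19 to 0.19 and -0.22 to 0.16). Mybpc3, cardiac myosin-binding protein C, which tunes cross-bridge cycling, differed by -0.04 and 0.05.

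In the Z-disc group Flnc rose and Nebl fell in CON mice. Flnc encodes filamin C, a muscle actin cross-linker at Z-discs and cell junctions. Its levels were 6.40, 6.70 and 6.95 in CON STZ, against 6.12, 6.20 and 6.31 in CON VEH. Every STZ mouse was above every VEH mouse, and the log2 fold change was 0.47 (SE 0.12, adjusted p = 0.0273), or 1.39-fold. In mG4H mice the levels were 6.23, 6.47 and 7.16 under STZ, against 6.09, 6.25 and 6.43 under VEH. These overlapped, with replicate 3 of mG4H STZ far above the others, and the log2 fold change was 0.28 (adjusted p = 0.296). The difference between the genotypes' effects was -0.20 (mG4H minus CON, 95% interval -0.55 to 0.16). With body weight as a covariate, which separates poorly from streptozotocin in CON mice, the effect on Flnc there was 0.25 (adjusted p = 0.915).

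Nebl encodes nebulette, a cardiac Z-disc protein that binds actin and tropomyosin. Its levels were -2.04, -1.86 and -1.59 in CON STZ, against -1.61, -1.52 and -1.22 in CON VEH, where the lowest VEH mice and the highest STZ mouse overlapped slightly. The log2 fold change was -0.35 (SE 0.10, adjusted p = 0.0478). In mG4H mice the levels were -1.92, -1.56 and -1.41 under STZ, against -1.52, -1.24 and -1.06 under VEH. The groups overlapped again, at a log2 fold change of -0.32 (adjusted p = 0.151). When each of the 24 arrays was left out in turn, Tnnt1 and Ckm kept their calls in CON mice in all 24 fits. Flnc lost its call in 6 (without replicates 1 or 3 of CON STZ, or 2, 4, 5 or 6 of CON VEH; adjusted p up to 0.0714). Myom2 lost its call in 14 (adjusted p up to 0.105) and kept it without any 1 mG4H STZ mouse, replicates 3 or 6 of mG4H VEH, replicate 6 of CON STZ or replicate 4 of CON VEH. Nebl lost its call in 17 (adjusted p up to 0.128) and kept it without replicates 3, 4 or 5 of mG4H STZ, 2 or 3 of mG4H VEH, or 4 or 6 of CON STZ.

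A further 7 Z-disc and junction genes, Des, Pdlim3, Pdlim5, Xirp1, Xirp2, Ankrd1 and Actn2, had positive values in CON mice with an unadjusted p below 0.05 and did not pass the adjusted threshold. Des encodes desmin, the intermediate filament that links Z-discs. Its levels were 5.80, 6.17 and 6.33 in CON STZ, against 5.56, 5.64 and 5.69 in CON VEH, with no overlap, and its log2 fold change was 0.53 (SE 0.16, adjusted p = 0.0629). In mG4H mice desmin RNA stood at 5.60, 5.92 and 7.02 under STZ, against 5.45, 5.57 and 5.69 under VEH, a log2 fold change of 0.54 (SE 0.16, adjusted p = 0.136). Pdlim3, the actinin-binding LIM protein ALP, ranged from 2.86 to 4.80 in CON STZ, against 2.54 to 2.92 in CON VEH, a log2 fold change of 0.84 with a wide error (SE 0.28, adjusted p = 0.0979). Xirp1 and Xirp2, actin-binding Xin proteins of the intercalated disc, had 0.61 (adjusted p = 0.104) and 0.40 (adjusted p = 0.0671). Pdlim5, the LIM protein ENH, had 0.35 (adjusted p = 0.0939) and Ankrd1, the stress-responsive titin-binding protein CARP, 0.39 (adjusted p = 0.224, and 0.0379 with the slide as a block, where the value was 0.43).

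The same genes in mG4H mice gave 0.44 for Pdlim3, 0.44 for Xirp1, 0.22 for Xirp2, 0.19 for Pdlim5 and 0.30 for Ankrd1, with 0 of them past the threshold. Actn2, the sarcomeric alpha-actinin that cross-links actin at the Z-disc, had a small difference in CON mice, 0.21, in which no STZ mouse overlapped a VEH mouse (adjusted p = 0.28). Synpo2l, an actin-binding Z-disc protein of heart and skeletal muscle, differed the other way, -0.22 in CON (no overlap, adjusted p = 0.103) and -0.22 in mG4H mice (adjusted p = 0.176). In all, 6 members did not overlap between CON STZ and CON VEH, Tnnt1, Ckm, Flnc, Des, Actn2 and Synpo2l, which is 6 of 35 where 4.59% of all genes did not. In mG4H mice 0 of 35 did not overlap, where 1.67% of all genes did not. Unlike the members, all genes include genes that were not above background on every array.

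The remaining Z-disc genes had values nearer to 0. Myoz2, calsarcin 1, which tethers calcineurin to the Z-disc, had log2 fold changes of 0.23 in CON and 0.27 in mG4H mice (adjusted p = 0.415 and 0.294). Tcap, telethonin, the cap that joins titin ends, had 0.15 and 0.22, with STZ ranges that enclosed or nearly enclosed the VEH ranges. Csrp3, muscle LIM protein, had 0.03 and 0.14, Nexn, nexilin, 0.05 and 0.01, and Cryab, the small heat shock protein alpha-B crystallin, -0.06 and 0.01. Ldb3, the PDZ-LIM protein ZASP, had -0.02 in CON and -0.21 in mG4H mice (adjusted p = 0.248, with 5 mG4H STZ mice because 1 spot was marked an outlier).

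**Figure D3:**
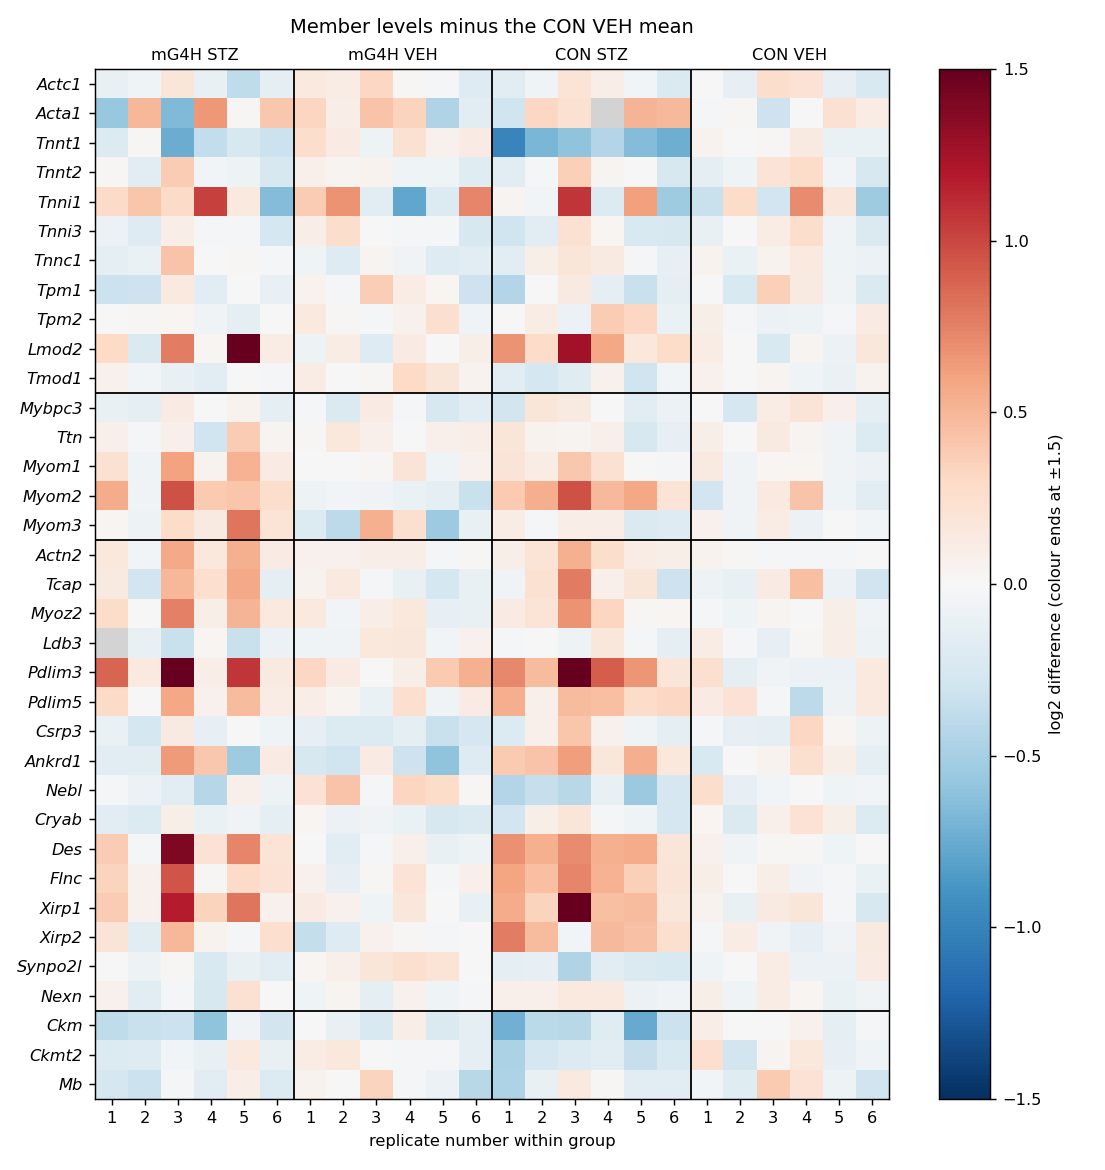
Level of each member (rows, in the 4 roles) in each of the 24 mice (columns, by group and replicate number), as the log2 difference from the CON VEH mean (colour, ending at ±1.5, grey for a dropped spot). Replicates 3 and 5 of mG4H STZ and replicate 3 of CON STZ have the highest Pdlim3, Xirp1 and Lmod2 values, and replicate 2 of mG4H STZ stays near the VEH mice.

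The STZ mice differed among themselves, and in mG4H STZ the genes Des, Pdlim3 and Xirp1 were high in the same mice. In mG4H STZ, replicate 3 had 7.02 for Des, 4.44 for Pdlim3 and 3.29 for Xirp1, and replicate 5 had 6.35, 3.75 and 2.91. Replicate 2 had 5.60 for Des, 2.82 for Pdlim3 and 2.18 for Xirp1, all 3 within the ranges of the mG4H VEH mice. Replicate 3 of CON STZ had 4.80 for Pdlim3 and 3.75 for Xirp1, the highest of all 24 mice for both. Des did not stand apart in that mouse, since the CON STZ mice other than replicate 6 all had 6.15 to 6.33. Without replicate 2 of mG4H STZ, 3 members passed the threshold in mG4H mice, Tnnt1, Myom2 and Des, against 0 with it. Without replicate 3 of mG4H STZ, 8 members passed in CON mice, the 5 above with Des, Pdlim3 and Xirp2.

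Of the 3 energy supply genes, Ckm fell in CON mice. It encodes the muscle creatine kinase that regenerates ATP beside the myofibrils, and its probe is printed above. Its levels were 4.93, 5.27 and 5.51 in CON STZ, against 5.55, 5.69 and 5.79 in CON VEH. Every STZ mouse was below every VEH mouse, and Ckm fell by 0.47 on the log2 scale (SE 0.10, adjusted p = 0.00952), or 1.38-fold. In mG4H mice the levels were 5.08, 5.35 and 5.64 under STZ, against 5.46, 5.55 and 5.79 under VEH. These overlapped, the log2 fold change was -0.23 (SE 0.10, adjusted p = 0.308), and the effects of the genotypes differed by 0.24 (mG4H minus CON, 95% interval -0.05 to 0.54). Within slides 1, 2 and 3 Ckm differed by -0.29, -0.56 and -0.55 in CON mice. With body weight as a covariate the CON effect on Ckm was -0.44 (adjusted p = 0.199), while Tnnt1 kept its call at -0.61 (adjusted p = 0.038). The Ckm value itself hardly moved, and weight and streptozotocin separate poorly in that fit.

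Ckmt2, the sarcomeric mitochondrial creatine kinase, had 8.29, 8.53 and 8.61 in CON STZ, against 8.49, 8.76 and 9.02 in CON VEH. The STZ mice were lower with overlap, at a log2 fold change of -0.28 (adjusted p = 0.0883). In mG4H mice it had 8.57, 8.66 and 8.92 under STZ, against 8.63, 8.76 and 8.92 under VEH, a log2 fold change of -0.10. Mb, myoglobin, had 8.95, 9.28 and 9.56 in CON STZ, against 9.11, 9.36 and 9.81 in CON VEH, and 9.09, 9.23 and 9.51 in mG4H STZ, against 9.0, 9.41 and 9.76 in mG4H VEH. Its groups overlapped, with log2 fold changes of -0.12 and -0.13.

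Between the genotypes, 0 of 35 members passed the threshold under VEH and 0 under STZ, where 0.0815% and 0.0106% of all genes did. Under VEH the members' log2 fold changes of mG4H over CON ran from -0.25 to 0.24, and 1 member, Csrp3 (-0.21), had an unadjusted p below 0.05, where 2.87% of all genes did. Under STZ they ran from -0.34 to 0.37, and 5 members had an unadjusted p below 0.05, where 3.55% of all genes did. These were Tnnt1 (0.37), Nebl (0.24) and Ckmt2 (0.19), with higher means in mG4H mice, and Ankrd1 (-0.34) and Xirp2 (-0.26), with lower means. The genotype comparison under STZ and the streptozotocin comparison in CON mice share the CON STZ mice.

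A fetal, skeletal or other related form was then set against the adult cardiac form within each array, as the difference of the 2 log2 probe levels. This was done for 7 pairs and the 4 comparisons of 2 groups. Myom1 is made in all striated muscle, so Myom1 minus Myom2 is not a comparison of a fetal or skeletal with an adult isoform. Such a difference shows unequal change of 2 probes, not which isoform is more abundant. After adjustment over the 28 comparisons 0 passed 0.05 in exact permutation tests over mice (two-sided), where the smallest adjusted p was 0.0606 and 8 had an unadjusted p below 0.05. The smallest p that the splits of 6 against 6 mice allow is 0.00216. Over 28 comparisons it adjusts to 0.0606 when 1 comparison alone reaches it, so 1 fully separated pair could not pass. The lack of a pass is therefore not evidence that no pair shifted. Tnnt1 minus Tnnt2 reached it in CON mice, with means of -6.74 ± 0.19 in STZ and -6.05 ± 0.16 in VEH mice (SD, n = 6 each, no overlap, exact permutation test), a difference of -0.68 on the log2 scale with the skeletal form lower relative to the cardiac form. In mG4H mice that difference was -0.43 (exact p = 0.0238, adjusted p = 0.0833). Without replicate 3 of mG4H STZ it was -0.27. Under quantile normalization the pair passed in both genotypes, at -0.72 in CON (exact test, adjusted p = 0.0152) and -0.50 in mG4H mice (exact test, adjusted p = 0.0364). Such a pass needs other comparisons with a small p in the same setting.

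**Figure D4:**
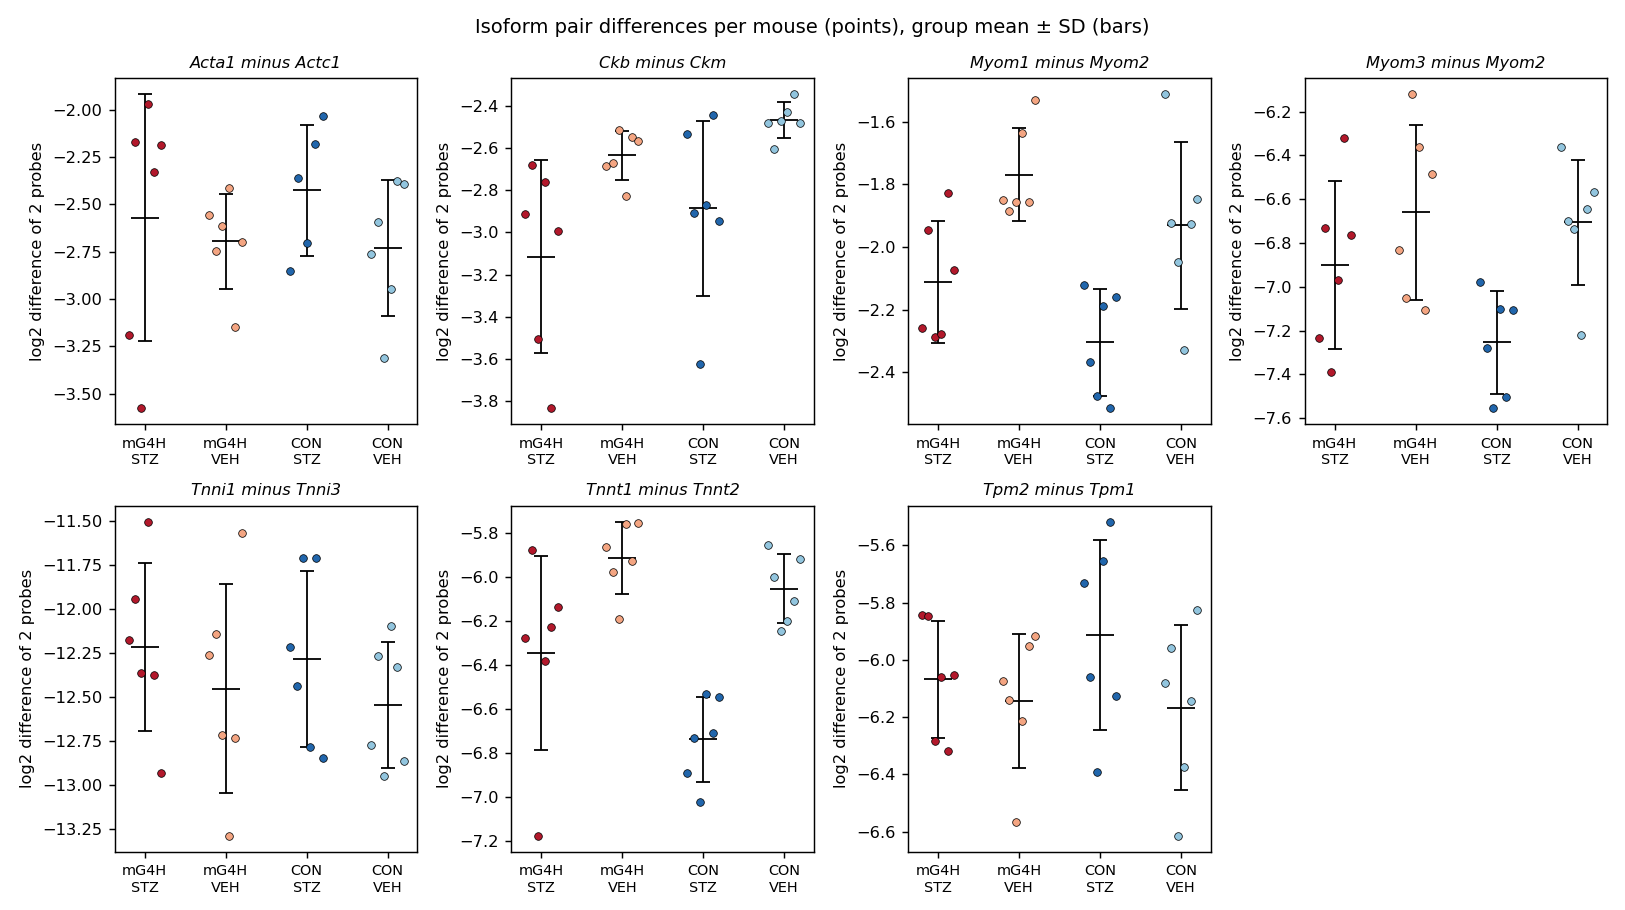
Difference of 2 log2 probe levels, the first named gene of a pair minus the second (y axes), in each mouse (points) with group mean and SD (bars), for mG4H STZ, mG4H VEH, CON STZ and CON VEH from left to right. The second is the adult cardiac form, and the first is a fetal, skeletal or other related form. Tnnt1 minus Tnnt2 of all CON STZ mice lies below that of all CON VEH mice, and the other 6 pairs overlap between STZ and VEH in both genotypes.

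The M-band pairs had negative differences under STZ. Myom3 minus Myom2 differed by -0.55 in CON (exact p = 0.00866) and -0.24 in mG4H mice (exact p = 0.301). Myom1 minus Myom2 differed by -0.37 (exact p = 0.0152) and -0.34 (exact p = 0.0108). Ckb minus Ckm, brain over muscle creatine kinase, differed by -0.42 in CON (exact p = 0.0216) and -0.48 in mG4H mice (exact p = 0.013), and it was -0.17 in mG4H against CON mice under VEH (exact p = 0.0195). Without replicate 3 of CON STZ, Ckb minus Ckm in CON mice was -0.27. The adjusted p of each of these with an exact p below 0.05 was 0.0833.

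The other 3 pairs had positive differences under STZ with wide errors, and in mG4H mice these depended on single arrays and settings. Acta1 minus Actc1 differed by 0.30 (SE 0.21) in CON, with 5 STZ mice, and 0.13 (SE 0.28) in mG4H mice. Tnni1 minus Tnni3 differed by 0.26 (SE 0.25) and 0.24 (SE 0.31). Tpm2 minus Tpm1 differed by 0.25 (SE 0.18) and 0.08 (SE 0.13). In mG4H mice Tpm2 minus Tpm1 turned negative with the mean of all probes of a gene (-0.07), with quantile normalization and without replicate 3 of mG4H VEH (-0.01), and Acta1 minus Actc1 ranged from 0.01 without replicate 4 to 0.33 without replicate 3 of mG4H STZ. Tnni1 minus Tnni3 in mG4H mice ranged from 0.07 without replicate 4 to 0.41 without replicate 6 of mG4H VEH. The exact p of these 6 comparisons lay between 0.186 and 0.682, so a shift of the size seen was not detectable in actin, troponin I or tropomyosin at this number of mice.

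Other genes of the sarcomere and of the creatine system, 64 measured genes from a list chosen with earlier results known, were read beside the members. In CON mice 7 of the 64 passed, 4 higher and 3 lower, which is 10.9% of 55 sarcomere and muscle structure genes and 11.1% of 9 creatine and adenylate shuttle genes, where 3.96% of all genes passed. Nrap is the one of these 7 not described here further. Myh7, beta-myosin heavy chain, the fetal and slow skeletal motor, had levels of 7.81, 8.80 and 9.0 in CON STZ, against 6.45, 7.06 and 7.42 in CON VEH, and 6.99, 8.01 and 8.80 in mG4H STZ, against 5.18, 6.08 and 7.19 in mG4H VEH. It rose in both genotypes, by 1.68 in CON (SE 0.31, adjusted p = 0.00329) and 1.95 in mG4H mice (SE 0.31, adjusted p = 0.00869). Hspb1, a small heat shock protein, and Pdlim7, the LIM protein enigma, rose in CON mice by 0.46 and 0.35 (adjusted p = 0.0179 and 0.0264). Tmod4, the skeletal tropomodulin, and Pdlim4, an actin-associated LIM protein, fell by 0.55 and 0.64 (adjusted p = 0.0191 and 0.0198). With 1 array left out, Hspb1, Pdlim4 and Myh7 kept these calls in all 24 fits. Pdlim7 lost its call in 6 fits (without replicates 1, 2 or 5 of CON STZ or 2, 3 or 4 of CON VEH, adjusted p up to 0.0748). Tmod4 lost its call in 3 fits (without replicate 1 of CON STZ or 3 or 4 of CON VEH, adjusted p up to 0.0583). With the mean of its probes Pdlim7 had 0.20 in CON mice (adjusted p = 0.335).

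Ckb, the brain form of cytosolic creatine kinase, had levels of 1.64, 2.42 and 2.64 in CON STZ, against 3.08, 3.21 and 3.32 in CON VEH, and 1.80, 2.36 and 2.67 in mG4H STZ, against 2.90, 2.95 and 2.99 in mG4H VEH. In both genotypes every STZ mouse was below every VEH mouse. The gene fell in both, by 0.89 in CON (SE 0.14, adjusted p = 0.00125) and by 0.71 in mG4H mice (SE 0.14, adjusted p = 0.0442), and its other probe gave -0.83 in CON. In mG4H mice the call was lost when 18 of the 24 arrays were left out 1 at a time, with adjusted p up to 0.104, and kept without replicates 2 or 6 of mG4H STZ or 1, 3, 4 or 6 of CON STZ. Ckm and Ckb therefore both fell in CON mice, and Myh7 and Ckb were the 2 of these 64 genes past the threshold in mG4H mice.

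For 6 members more than 1 probe passed the filter on dim probes. The probes of Pdlim5 gave 0.35, 0.38 and 0.32 in CON mice and those of Ldb3 -0.02 and -0.06, the brightest first. The 5 probes of Tpm1 did not share a sign, with -0.15 for the brightest and values from -0.08 to 0.13 for the others, with SEs from 0.09 to 0.17. The 4 probes of Ttn gave values from 0.00 to 0.10, those of Tpm2 0.10 and 0.04, and those of Cryab -0.06 and 0.01. No probe of these 6 genes passed the adjusted threshold in CON mice.

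**Figure D5:**
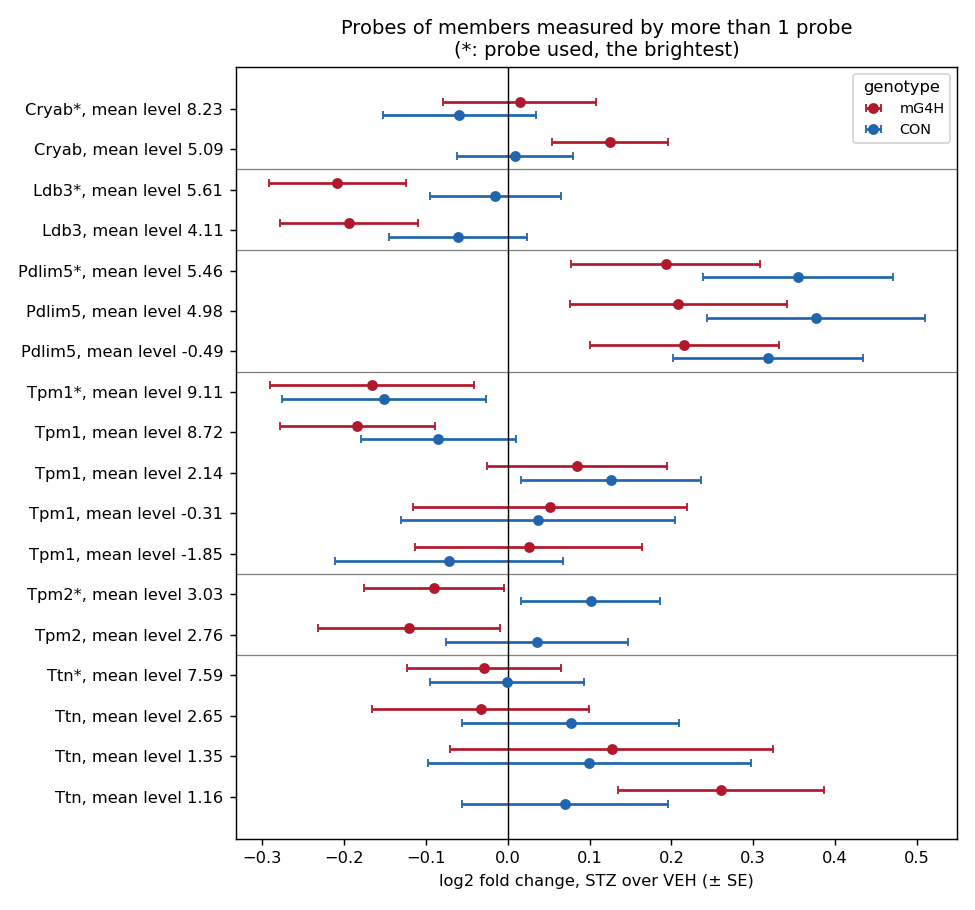
Log2 fold change of STZ over VEH (x axis, points with SE bars) for every probe past the filter of the 6 members with more than 1 such probe (y axis, with the probe's mean level over 24 arrays), in mG4H mice (red) and CON mice (blue). The 3 probes of Pdlim5 lie at 0.32 to 0.38 in CON mice, and the Tpm1 probes lie on both sides of 0.

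Markers of other cells were read beside these results. Of 15 fast skeletal muscle markers 12 passed the filter (Myh1, Myh4 and Actn3 did not) and 0 were called in CON or mG4H mice. Myh8, the perinatal myosin heavy chain, had a spot dropped on at least 1 array and was left out of the sum. The log2 level of its probe averaged 8.22 ± 0.14 in mG4H STZ, 8.27 ± 0.20 in mG4H VEH, 8.21 ± 0.25 in CON STZ and 8.31 ± 0.20 in CON VEH (SD). The sum therefore leaves out the brightest probe of this list. Whether that probe also reads RNA of other myosin heavy chains was not tested, so its level is uncertain as a measure of Myh8. The sum of these 11 on the linear scale ranged from 98.7 to 123 in mG4H STZ, 84.9 to 125 in mG4H VEH, 85.2 to 123 in CON STZ and 99.5 to 135 in CON VEH. For smooth muscle 0 of 9 measured markers were called, with sums of 131 to 167, 154 to 178, 125 to 175 and 146 to 167 in the same order, and for ventricular cardiomyocytes 0 of 10. Of 10 fibroblast markers 2 were called higher in CON mice, where 1.66% of all genes were, and 0 in mG4H mice. The 10 gave overlapping sums of 324 to 594 in CON STZ, against 330 to 403 in CON VEH. In mG4H mice the sums were 341 to 476 under STZ, against 304 to 433 under VEH. Of 9 macrophage markers 1 was called higher in CON mice, where 1.66% of all genes were, and 0 in mG4H mice. The 9 gave sums of 63.3 to 80.7 in CON STZ, against 50.9 to 60.3 in CON VEH. In mG4H mice the sums were 53.7 to 69.6 under STZ, against 49.1 to 58.0 under VEH. Among 8 atrial markers 1 was called higher in CON mice, where 1.66% of all genes were, and 1 in mG4H mice, where 28 of 28237 genes were. The summed level was 70.5 to 526 in mG4H STZ, against 26.0 to 111 in mG4H VEH, and 88.8 to 369 in CON STZ, against 40.2 to 52.9 in CON VEH. Under STZ this sum rested mostly on Nppa, which had the highest mean of the 8 in each group. Its log2 level averaged 6.77 in mG4H STZ, against 4.77 in mG4H VEH, and 7.50 in CON STZ, against 5.14 in CON VEH. The median log2 fold change of the 8 was -0.287 in mG4H and 0.105 in CON mice, so the list did not rise as a whole. For endothelial markers 0 of 8 and for adipocyte markers 0 of 6 were called. None of these lists was at 0 on any array, and the part of these cells in the members' differences was not tested.

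The promoters of Tnnt1 and Ckm are printed because both genes fell in CON mice, with 250 bases before the RefSeq start on build GRCm38.p6. Tnnt1 and Tnni3 are neighbours on chromosome 7 with 0 protein-coding genes between them in RefSeq, and in CON mice Tnnt1 fell by 0.68 while Tnni3 differed by -0.11. Tnni1 and Tnnt2 lie on chromosome 1 with 1 gene, Lad1, between them. The letters CANNTG, the E-box bound by myogenic helix-loop-helix factors (searched on both strands), and TATAAA (searched on the transcribed strand only) are in capitals. The Tnnt1 window lies on the minus strand at chr7:4515976-4516225, and the Ckm window on the plus strand at chr7:19410844-19411093.
Tnnt1 promoter: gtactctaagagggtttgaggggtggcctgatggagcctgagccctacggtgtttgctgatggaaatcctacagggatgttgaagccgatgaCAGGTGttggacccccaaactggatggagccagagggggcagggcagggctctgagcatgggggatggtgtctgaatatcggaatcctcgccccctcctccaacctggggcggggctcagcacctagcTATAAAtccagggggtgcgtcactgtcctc
Ckm promoter: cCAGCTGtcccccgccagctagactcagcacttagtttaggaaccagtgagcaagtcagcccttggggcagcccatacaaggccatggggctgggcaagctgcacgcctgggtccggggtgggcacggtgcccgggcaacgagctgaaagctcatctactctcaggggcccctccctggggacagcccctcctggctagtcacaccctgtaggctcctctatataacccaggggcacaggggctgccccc
The Tnnt1 window holds TATAAA at 30 bases before the start and 1 E-box at 158 bases, and the Ckm window holds 1 E-box at 249 bases. An E-box was present in 66.2% of all 32851 RefSeq promoter windows of this length and TATAAA in 7.59%.

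Of the 35 members, 30 had at least 1 such window, 42 windows in all. A CArG box, the site of serum response factor, was found in 6 of the 42 windows (14.3%), those of Acta1, Actc1, Ldb3, Myom1 and Nebl, where 1.47% of all windows held one. A MEF2 site was found in 7 windows (16.7%), those of Mybpc3, Myom3, Myoz2, Synpo2l, Ttn and Xirp2, where 2.92% of all did. An MCAT element, CATTCC on either strand, was in 9 (21.4%), among them windows of Flnc and Nebl, where 12.6% of all did, and an E-box in 33 (78.6%). Windows of 1 gene can overlap, and a match is a description of the letters, not a bound site. The windows of Tnnt1 and Ckm matched neither the CArG box, the MEF2 site nor the MCAT element, which says nothing of the factors.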

How the data were processed

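The measurements are 1-colour (Cy3) Agilent microarrays of left ventricular RNA, 1 array for each of 24 mice. The authors deposited the scanner output of each array, whose spot intensity is, per the file headers, Agilent's processed (background-corrected) signal, not normalized between arrays, and, per the submitters' processing notes, the tools were Agilent Feature Extraction and limma. The probes carry mm9 positions per the file headers.

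From the 55681 gene probes, spots marked as outliers by the software were dropped (0.0829% of kept values), log2 intensities were lowered by each array's 75th percentile, and the 39769 probes well above background on at least 6 arrays were kept. Each gene was represented by its probe with the highest mean over 24 arrays, which left 28237 genes. All 4 groups were fitted together in limma 3.58.1 (R 4.3.3), with Benjamini-Hochberg adjustment over all genes and a threshold of 0.05. No siblings, slides or replicate numbers entered the model. Isoform pairs were compared by exact permutation tests over mice. Figures and sequence searches used Python 3.11.15, pandas 2.3.3, numpy 2.4.6 and matplotlib 3.10.9. The fits were tested on simulated data. The number of arrays limits the precision. The p-values set each difference against the spread between mice, taken as independent although some were siblings.

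The members, the lists of other sarcomere, creatine and cell marker genes and the pairs were chosen with earlier results of these data known. All 35 members were named, those called in a comparison, in an isoform pair or in energy supply with full values, the others with fold changes, and at most 6 called genes of the other lists per comparison. Promoter windows and gene neighbours came from RefSeq (GRCm38.p6), and 30 of 35 members matched a window. The alternatives tried were another background correction, normexp with an offset of 50, quantile and median scaling, no filter and a stricter filter, the slide, the scan day or the replicate number as a block, array weights, a trended robust prior, body weight, fits on 2 groups only, leaving out slide 4 or each array in turn, and the mean of a gene's probes.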

Additional observations from a re-analysis of the deposited data

Results flagged for a closer look

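Of 140 sets of values (6 mice each, or 5 where a spot was dropped), 1 for each member and group, 9 held a mouse that stood apart from the others by Dixon's criterion, where 7 would be marked by chance at 1 in 20. In mG4H STZ, replicate 3 had 8.39 for Tnnc1, against 7.81 to 7.97 in the other 5 mice, and 7.16 for Flnc, against 6.23 to 6.55. In mG4H VEH, replicate 6 had 7.90 for Myom2, against 8.09 to 8.20 in the others. In CON STZ, replicate 3 stood apart for 3 genes, with 4.80 for Pdlim3, against 2.86 to 3.58 in the others, 3.75 for Xirp1, against 2.28 to 2.67, and 2.54 for Synpo2l, against 2.75 to 2.86. In the same group replicate 6 had 5.80 for Des, against 6.15 to 6.33. In CON VEH, replicate 4 had 8.08 for Csrp3, against 7.63 to 7.80 in the others, and replicate 1 had -1.22 for Nebl, against -1.61 to -1.48. Levels are log2 over the array's 75th percentile.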

How the results depend on the processing

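Of the members called in CON mice, Tnnt1 and Ckm passed with each array left out in turn, and lost the call under median scaling, where Tnnt1 gave -0.73 (adjusted p = 0.208) and Ckm -0.51 (adjusted p = 0.808). The median and the 75th percentile differ only in how the arrays are scaled, and the median log2 fold change of all genes was -0.05 in mG4H and -0.02 in CON mice under median scaling, against 0.06 and 0.03. Why the calls change was not tested. The 5 members called in CON mice became 0 under median scaling, 1 once body weight was included, 2 without slide 4, 3 with no filter and 9 with array weights, and 2 to 8 with 1 array left out. The 0 members in mG4H mice became 1 with normexp, quantile normalization, array weights or a trended robust prior, and 0 to 3 with 1 array left out. In the 2 genotype comparisons and the comparison of effects, 0 members were called under every alternative run.

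Called genes in CON mice numbered 75 under median scaling, 642 without slide 4, 168 given body weight, 2389 with array weights and 636 to 1640 with 1 array left out, against 1117. In mG4H mice there were 114 with normexp, 6 under median scaling, 31 with no filter, 137 with probes above background on all arrays, 48 with the slide and 28 with the scan day as a block, 306 with array weights, 203 with a trended robust prior, 17 with body weight, 0 with only 2 groups, 23 without slide 4, 43 with probe means and 17 to 627 with 1 array left out, against 75. Between genotypes under VEH there were 8 under median scaling, 12 with body weight, 230 with array weights, 100 with only 2 groups, 14 without slide 4 and 13 to 38 with 1 array left out, against 23. Under STZ there were 0 with normexp, 15 with array weights, 0 with only 2 groups, 1 with probe means and 2 to 12 with 1 array left out, against 3. The comparison of effects had 1 with the slide block, 6 with array weights, 1 with a trended robust prior, 1 without slide 4 and 0 to 1 with 1 array left out, against 0.

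Of the 64 other genes, 1 was called in CON mice under median scaling, 16 with array weights, 12 with a trended robust prior, 3 with body weight, 4 without slide 4 and 4 to 12 with 1 array left out, against 7. In mG4H mice there was 1 under quantile normalization, median scaling, no filter, the slide block, the scan day block, body weight or without slide 4, 0 with only 2 groups and 1 to 5 with 1 array left out, against 2.

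Under quantile normalization 6 pair values passed the exact test over mice, Tnnt1 minus Tnnt2 at -0.72 in CON and -0.50 in mG4H mice, Myom3 minus Myom2 at -0.57 in CON, Myom1 minus Myom2 at -0.40 in CON and -0.35 in mG4H, and Ckb minus Ckm at -0.47 in mG4H. With 1 array left out, 1 or more fits of STZ against VEH passed for Tnnt1 minus Tnnt2 and Myom3 minus Myom2 in CON and for Myom1 minus Myom2 in both genotypes (exact test, lowest adjusted p = 0.0202). The values ranged from -0.72 to -0.63 for Tnnt1 minus Tnnt2 in CON, -0.65 to -0.48 for Myom3 minus Myom2 in CON, and -0.45 to -0.29 in CON and -0.40 to -0.30 in mG4H for Myom1 minus Myom2. In mG4H mice they ranged from -0.53 to -0.27 for Tnnt1 minus Tnnt2 and from -0.57 to -0.34 for Ckb minus Ckm. Tnnt1 minus Tnnt2 of mG4H against CON under STZ ranged from 0.30 to 0.56 and also passed with 1 array left out (exact test, lowest adjusted p = 0.0303). It kept the main result, no pass, in 23 of the 24 fits.

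Replicate numbers are shared between the groups, and not every same-numbered pair deviated together, with a lowest correlation of -0.60 to -0.43 and a highest of 0.35 to 0.66 per comparison, 2 or 3 of 6 pairs over 0.1, and 0 to 3 of 6 mice correlating best with their own number. With the replicate block 937 genes and 5 members were called in CON mice, where Xirp1 was added at 0.61 (adjusted p = 0.0499) and Nebl was lost (adjusted p = 0.0867), as was the other gene Pdlim7 (adjusted p = 0.0593), and 59, 20, 2 and 0 genes were called in the mG4H, VEH genotype, STZ genotype and effect comparisons. Leaving out saturated probes changed nothing since none was saturated, and the comparison of effects has no fit with 2 groups only. Dim probes such as that of Tnni1 have wide errors, which limits what they can show.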

Other observations

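Of 9 genes of brain and mitochondrial creatine kinase, creatine synthesis, creatine uptake and the adenylate kinase shuttle, 6 had negative values under STZ in mG4H and 7 in CON mice, with a median log2 fold change of -0.27 in mG4H and -0.30 in CON mice, where the medians of all genes were 0.06 and 0.03. One of the 9, Ckb, passed the adjusted threshold in each genotype. At an unadjusted p below 0.05 there were 6 of 9 lower in mG4H mice, where 7.61% of all genes were, and 5 of 9 lower in CON mice, where 7.75% of all genes were, and 0 of 9 higher in either. The groups did not overlap for 4 of 9 in each genotype, where 1.67% of all genes did not in mG4H and 4.59% in CON mice. Gamt, which makes creatine from guanidinoacetate, and Ak4, a mitochondrial adenylate kinase, are named here after their values were seen. Gamt had -0.96 in mG4H (adjusted p = 0.113) and -0.90 in CON mice (adjusted p = 0.0624). Ak4 had -0.65 in mG4H (adjusted p = 0.0995) and -0.54 in CON mice (adjusted p = 0.0886). Slc6a8, the creatine transporter, had 0.19 and 0.19, both positive and short of the test.

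The summed level of 3 red cell genes, on the linear scale over the array's 75th percentile, ranged from 31.1 to 1017 in mG4H STZ, 382 to 573 in mG4H VEH, 209 to 391 in CON STZ and 324 to 500 in CON VEH, so the mG4H STZ mice differed most among themselves. The summed level of 8 endothelial markers ranged from 118 to 142 in mG4H STZ, 127 to 139 in mG4H VEH, 117 to 150 in CON STZ and 133 to 151 in CON VEH, and the sum of 6 adipocyte markers from 1.37 to 3.28, 1.34 to 3.99, 1.72 to 4.40 and 0.708 to 2.76 in the same order.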
